A study of Mus musculus with 6 samples.

Results

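The 9 genes described here encode proteins of the myelin sheath and of the oligodendrocytes that build it. They are Myrf, Bcas1, Enpp6, Ugt8a, Cnp, Mag, Mbp, Mobp and Mog, each found by its gene name as 1 row of a table of 54532 genes. They were measured by RNA sequencing in mouse neurospheres, floating colonies grown from neural progenitors in culture. The KO spheres carried a conditional knockout of Ash2l made with D6-Cre, a Cre transgene active in the dorsal forebrain, and there were 3 KO libraries, numbered 1, 2 and 3. The WT spheres were wild type, with 3 libraries numbered 3, 6 and 7. Both groups were of the C57BL/6 strain, came from E14.5 embryos (mid-gestation), and were sampled on day 6 of culture in medium with EGF and bFGF at 20 ng/ml each. ASH2L belongs to the core of every COMPASS complex, the enzymes that place methyl groups on lysine 4 of histone H3. The tissue is named as dorsal cortex in one label and as the walls of the lateral ventricles in another. Which cells of a KO sphere had lost Ash2l, whether WT embryos carried the Cre, and whether each library had an embryo of its own is not stated in the labels. The p-values therefore speak only of how far these libraries vary, and that variation may be technical.

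Oligodendrocytes are the myelinating cells of the central nervous system. Their progenitors divide, leave the cell cycle, pass through a short premyelinating stage and then make large amounts of membrane that wraps axons. MYRF is the transcription factor that switches on myelin genes at the end of that path, and BCAS1 and ENPP6 mark the newly formed cells in between. UGT8A makes galactosylceramide, the main glycolipid of the sheath. CNP and MAG sit in the uncompacted and axon-facing membrane, MBP and MOBP hold the compact layers together, and MOG lies on the outer surface of mature sheaths.

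Libraries held 16764480 to 21983659 counted reads, at which 3 reads correspond to 0.142 to 0.173 CPM (reads relative to library size, scaled between libraries by the TMM method of edgeR). Ash2l itself measured 95.9 ± 8.41 CPM in KO and 113 ± 3.55 CPM in WT (SD, n = 3 each), with a log2 fold change of -0.24 (SE 0.10) short of the threshold (adjusted p = 0.119, from the quasi-likelihood test of edgeR with Benjamini-Hochberg adjustment over all tested genes, as for every adjusted p here). A count over the whole gene includes exons that a deletion leaves in place. On the component that held 69.9% of the variance of log2 CPM, KO 1, KO 2 and KO 3 lay at -76.8, -62.6 and -53.5, and WT 3, WT 6 and WT 7 at 25.5, 81.7 and 85.7, so KO 3 and WT 3 were the libraries nearest to the other group. Values that rest on these libraries are given without them. The labels name no batch. Defining markers of neural progenitors were present in all libraries: Nes at 524.7 to 768.7 CPM in KO and 93.8 to 171 CPM in WT, Sox2 at 184.6 to 299.5 CPM in KO and 534 to 613 CPM in WT, and Vim at 1325 to 2182 CPM in KO and 1381 to 2026 CPM in WT.

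Of the 9 genes, 8 fell in KO at an adjusted p under 0.05 and none rose. The exception was Mog. In bulk RNA, fewer oligodendrocytes and less RNA of these genes per cell cannot be told apart. Among all 16606 tested genes 29% passed that threshold, 15.5% as lower in KO. Each of the 8 was lower by more than 8-fold, and 0.614% of all tested genes both passed and were lower by at least 8-fold. In the same 8 genes every KO library lay below every WT library, an order found in 25.2% of all tested genes. The median log2 fold change of the 9 genes was -4.49, against 0.0019 over all tested genes. It was -5.29 without KO 3, -3.92 without WT 3 and -5.69 without WT 3 and KO 3 together. With any other library left out it lay between -4.71 and -3.98. The genes were chosen with results of these data known, so these counts describe them and are no test of the set. All 9 passed the expression filter, which asked for about 0.513 CPM in 3 libraries. Mobp did so through its WT libraries alone, and Mag and Enpp6 had 1 KO library over that level. These 3 thus entered the test through the group where they were higher, and their calls are descriptions.

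**Figure D1:**
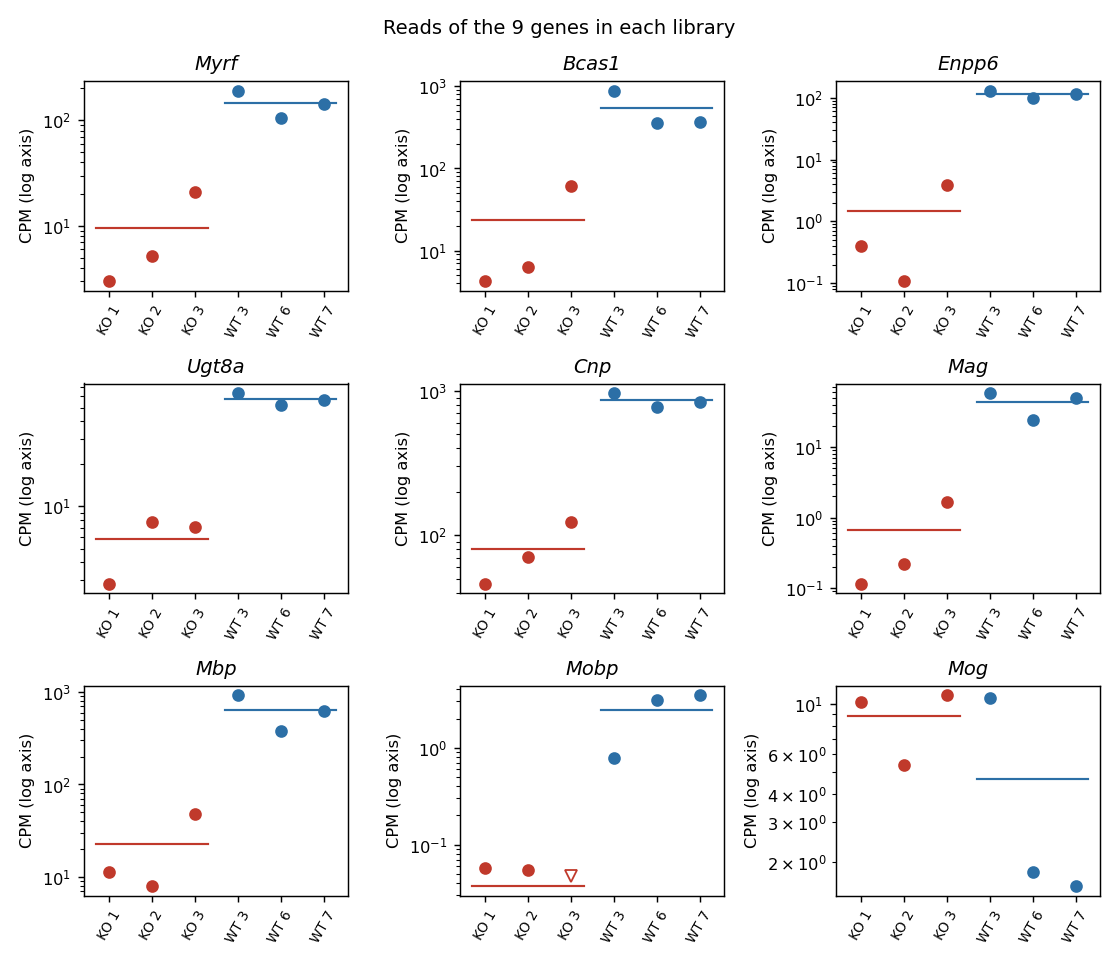
Normalised read count (CPM, log axes with a different range in each panel) of the 9 genes in KO 1, KO 2 and KO 3 (red) and WT 3, WT 6 and WT 7 (blue), with horizontal lines at the group means. The KO libraries lie below the WT libraries for 8 genes and overlap them for Mog. The open triangle of Mobp in KO 3 stands at the value of 1 read, where 0 were counted.

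Promoter sequences of 6 of the 9 genes were matched in a RefSeq table of 300-base windows (250 bases before to 50 after a start site, GRCm38.p6, the assembly behind the mm10 build of the counts). Those of Mag, Mobp, Ugt8a and Mog are printed, Ugt8a and Mog for their high and low content of CG pairs, Mobp for its run of ACAANG and Mag for its matches to CTGGNAC. In Mag (chr7:30914814-30915113, minus strand, 1 of 3 windows of the gene) and Mog (chr17:37023349-37023648, minus strand) capitals mark CTGGNAC. It is a loose pattern used to look for MYRF motifs, with any base at N, so a match need not be a MYRF motif. The first match in Mag, GTCCCAG, reads CTGGGAC on the other strand. In Mobp (chr9:120149492-120149791, plus strand) they mark ACAANG, a core that SOX factors such as SOX10 bind. In Ugt8a (chr3:125938603-125938902, minus strand) they mark CG pairs. Both motifs were read on both strands, and they do not overlap each other in these windows.
Mag: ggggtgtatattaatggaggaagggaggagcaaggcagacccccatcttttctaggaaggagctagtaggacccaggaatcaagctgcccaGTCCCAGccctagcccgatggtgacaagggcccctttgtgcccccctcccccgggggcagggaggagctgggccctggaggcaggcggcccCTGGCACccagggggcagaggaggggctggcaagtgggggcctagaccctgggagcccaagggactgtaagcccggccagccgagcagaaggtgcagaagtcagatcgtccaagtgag
Mobp: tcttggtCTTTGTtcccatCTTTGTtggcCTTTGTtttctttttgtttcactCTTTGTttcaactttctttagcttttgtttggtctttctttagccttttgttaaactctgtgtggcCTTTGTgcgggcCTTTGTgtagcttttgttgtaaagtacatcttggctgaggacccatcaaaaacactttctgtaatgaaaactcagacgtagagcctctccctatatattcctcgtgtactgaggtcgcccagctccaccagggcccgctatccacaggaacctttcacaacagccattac
Ugt8a: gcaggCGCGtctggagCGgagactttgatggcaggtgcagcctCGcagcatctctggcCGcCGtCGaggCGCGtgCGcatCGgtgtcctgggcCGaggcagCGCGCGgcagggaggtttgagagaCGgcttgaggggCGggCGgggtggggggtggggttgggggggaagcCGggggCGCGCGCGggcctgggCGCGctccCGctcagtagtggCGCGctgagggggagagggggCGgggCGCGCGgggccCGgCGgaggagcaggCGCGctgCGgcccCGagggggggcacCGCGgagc
Mog: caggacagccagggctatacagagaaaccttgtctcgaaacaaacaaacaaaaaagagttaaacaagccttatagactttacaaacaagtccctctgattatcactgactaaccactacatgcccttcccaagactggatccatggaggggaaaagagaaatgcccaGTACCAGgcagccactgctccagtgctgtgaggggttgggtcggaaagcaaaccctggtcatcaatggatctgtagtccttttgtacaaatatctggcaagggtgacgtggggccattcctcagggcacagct

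The Mobp window held ACAANG 6 times, a number that 0.0152% of the 32851 windows in the table reached, while 41.3% held it at least once. Mag held ACAANG 2, 2 and 1 times in its windows 1, 2 and 3. Enpp6, Cnp and Mog held it 1 time each, and Ugt8a had none. Mag held CTGGNAC 2 times in each of its windows 1 and 2 and not in its window 3, Cnp 2 times and Mog 1 time. Enpp6, Mobp and Ugt8a had none. Windows 1 and 2 of Mag overlap over most of their length, so their matches are not separate ones. Among all windows 19.3% held CTGGNAC. The E-box CANNTG, bound by OLIG factors, stood in the windows of Mag, Cnp and Ugt8a, against 72.3% of all windows, and its form CAGCTG, counted within it, stood in none of the 6 genes' windows and in 16.3% of all. The promoters also differed in CpG content, the feature of the CpG islands at which methylation of lysine 4 of histone H3 is usually high. The ratio of observed to expected CG pairs was 0.974 in Ugt8a, which held 40 CG pairs, and 0.638 in Cnp, against 0.364 in Mobp, 0.331 in Enpp6, 0.194, 0.101 and 0.132 in windows 1, 2 and 3 of Mag and 0.171 in Mog. The median over all windows was 0.384. Whether any of these motifs is bound was not measured.

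Myrf (ENSMUSG00000036098), the transcription factor of the group, measured 3.00, 5.18 and 20.7 CPM in KO 1, KO 2 and KO 3, against 191, 105 and 142 CPM in WT 3, WT 6 and WT 7. Every KO library lay far below every WT library, and KO 3 stood above the other KO libraries. The log2 fold change was -3.91 (SE 0.71, adjusted p = 0.00852, edgeR), 15-fold lower in KO. Without KO 3 it was -5.13, and without WT 3 it was -3.66. The gene lies on chromosome 19 from 10208272 to 10240748.

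Bcas1 and Enpp6, the genes of newly formed oligodendrocytes, were both low in KO 1 and KO 2 and less so in KO 3. Bcas1 (ENSMUSG00000013523, chromosome 2 from 170346991 to 170427845) had 4.27, 6.42 and 60.9 CPM in KO 1, KO 2 and KO 3, against 886, 359 and 367 CPM in WT 3, WT 6 and WT 7. The groups did not overlap, but KO 3 held 11.4 times the mean of KO 1 and KO 2, and WT 3 held 2.44 times the mean of WT 6 and WT 7. Its log2 fold change of -4.49 (SE 1.09) passed at an adjusted p = 0.0232 (edgeR), the least firm call of the 8. That call ended without KO 1 (adjusted p = 0.0511), KO 2 (adjusted p = 0.0724) or WT 6 (adjusted p = 0.0513). The log2 fold change was -6.63 without KO 3 and -3.92 without WT 3. An antisense gene inside its span, Bcas1os2, was lower in every KO library too, with 0, 0.216 and 0.662 CPM in KO 1, KO 2 and KO 3 and 12.5, 3.92 and 3.88 CPM in WT 3, WT 6 and WT 7. Whether reads were counted by strand is not stated, so reads of this pair cannot be told apart.

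Enpp6 (ENSMUSG00000038173), a choline phosphodiesterase, lies on chromosome 8 from 46986887 to 47096762. It had 0.403, 0.108 and 3.83 CPM in KO 1, KO 2 and KO 3, against 131, 98.5 and 116 CPM in WT 3, WT 6 and WT 7. The KO values of KO 1 and KO 2 rest on 7 and 2 reads, those of KO 3 on 81, while each WT library had at least 1962. The log2 fold change was -6.24 (SE 0.89, adjusted p = 0.00409, edgeR), with -8.79 without KO 3 and -6.13 without WT 3. The value of -6.24 was the lowest of the 9 genes with all libraries, whereas Mobp was lower without KO 1, KO 2 or WT 3. Bcas1 and Mbp were lower than Enpp6 on the log2(FPKM + 1) scale. In WT its 3 libraries differed by no more than 1.33-fold.

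By the mean of the KO libraries, Ugt8a and Cnp kept the largest share of their WT level, and both varied little between WT libraries. In KO 3 alone Myrf stood at 14.2% of its WT mean, beside 14.3% for Cnp and 12.4% for Ugt8a. Ugt8a (ENSMUSG00000032854, chromosome 3 from 125865271 to 125938619) had 2.82, 7.67 and 7.09 CPM in KO 1, KO 2 and KO 3, against 63.4, 51.9 and 56.3 CPM in WT 3, WT 6 and WT 7. Here KO 1 was the low library and KO 2 and KO 3 were close. The log2 fold change was -3.28 (SE 0.36, adjusted p = 0.002, edgeR), 9.72-fold lower in KO, and stayed between -3.51 and -2.93 whichever library was left out. Cnp (ENSMUSG00000006782, chromosome 11 from 100574904 to 100591729), a phosphodiesterase that keeps cytoplasmic channels in myelin open, had 46.3, 70.7 and 123 CPM in KO 1, KO 2 and KO 3, against 967, 773 and 838 CPM in WT 3, WT 6 and WT 7. It fell by 3.42 on the log2 scale (SE 0.36, adjusted p = 0.00189). Its span from base 100582818 on is shared with Dnajc7, a chaperone gene on the other strand, whose mean CPM was 197% of that of Cnp in KO and 28.9% in WT, and which itself fell by 0.66 (SE 0.11, adjusted p = 0.00684, edgeR). How many reads they share was not measured.

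Mag, a lectin-like adhesion protein that faces the axon (ENSMUSG00000036634, chromosome 7 from 30899176 to 30914873), had 0.115, 0.216 and 1.66 CPM in KO 1, KO 2 and KO 3, against 58.4, 24.4 and 49.6 CPM in WT 3, WT 6 and WT 7. That is 2, 4 and 35 reads in KO, against 486 to 1048 in WT. KO 3 again stood above the other KO libraries, by 10-fold of their mean. The log2 fold change was -5.98 (SE 0.83, adjusted p = 0.00379, edgeR), with -7.97 without KO 3 and -5.72 without WT 3.

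The genes of compact myelin were Mbp and Mobp. Mbp (ENSMUSG00000041607, chromosome 18 from 82475146 to 82585637) had 11.4, 7.94 and 48.1 CPM in KO 1, KO 2 and KO 3, against 919.9, 377 and 626 CPM in WT 3, WT 6 and WT 7, with no overlap of the groups. It was 28.4-fold lower in KO (log2 fold change -4.83, SE 0.78, adjusted p = 0.0059, edgeR), with -6.04 without KO 3 and -4.47 without WT 3. The Mbp gene also makes the golli transcripts, which start further upstream and are found in neurons and immune cells, and a count over the whole gene does not separate them.

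Mobp (ENSMUSG00000032517, chromosome 9 from 120149707 to 120181484) was rare in both groups. It had 0.0576, 0.054 and 0 CPM in KO 1, KO 2 and KO 3, against 0.785, 3.11 and 3.46 CPM in WT 3, WT 6 and WT 7. All KO libraries together held 2 reads and all WT libraries 149, a KO level of 1.39% of that in WT, with an exact 95% interval of 0.166% to 5.09% that covers counting error only. Mobp passed the expression filter through its WT libraries alone, so its adjusted p = 0.00513 (edgeR) is a description and no separate support. Its fitted fold change depends on the prior count. Mobp was the member that was lowest in WT 3 among the WT libraries, at 0.239 times the mean of WT 6 and WT 7, whereas the other 8 were highest there.

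**Figure D2:**
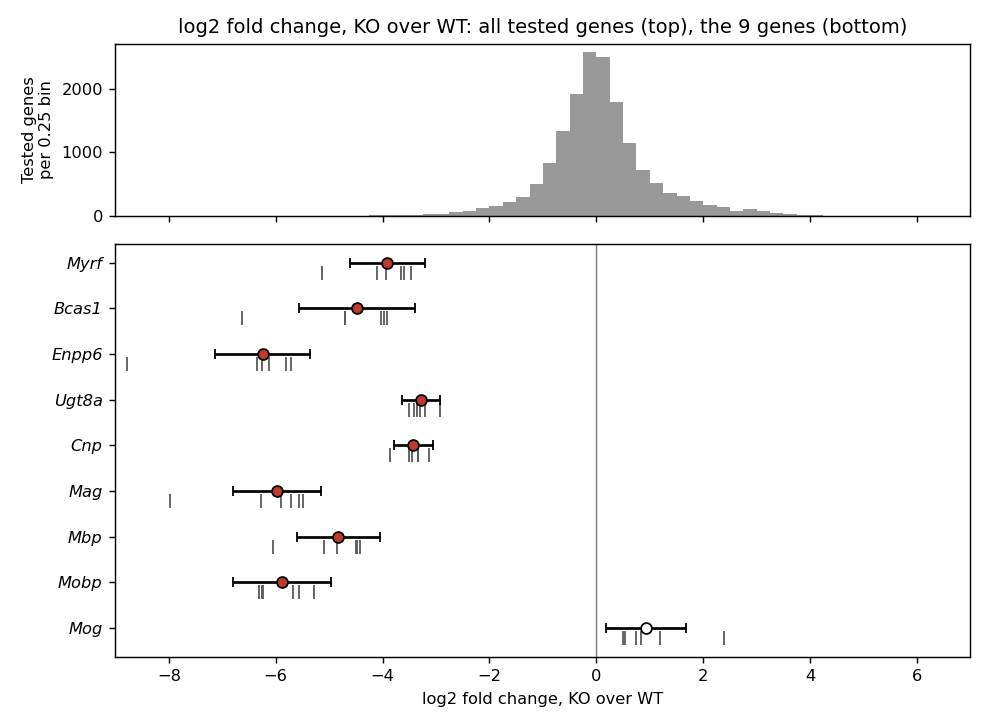
Log2 fold change of KO over WT, for all 16606 tested genes as a histogram with bins of 0.25 (top) and for the 9 genes (bottom). Points with bars give the value and its SE, filled where the adjusted p was under 0.05, and grey ticks below them give the value with each library left out in turn. The 8 filled points lie between -6.24 and -3.28, and the open point of Mog at 0.93.

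Mog (ENSMUSG00000076439, chromosome 17 from 37010743 to 37023398) did not follow the other 8. It had 10.2, 5.34 and 10.9 CPM in KO 1, KO 2 and KO 3, against 10.6, 1.81 and 1.56 CPM in WT 3, WT 6 and WT 7. The groups overlapped because WT 3 was as high as the KO libraries, and WT 6 and WT 7 lay below all of them. The log2 fold change was 0.93 (SE 0.75), and the adjusted p of 0.372 missed the threshold (edgeR). It passed as higher in KO without WT 3 (2.38, adjusted p = 0.00374), without WT 3 and KO 3 together (2.21, adjusted p = 0.00692) and with limma-voom and library weights (1.95, adjusted p = 0.00925). It was 0.54 without WT 6 and 0.50 without WT 7.

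Mog lies tail to tail with Zfp57, a zinc finger gene that maintains imprints, with 107 bases between their annotated ends. Zfp57 and Gabbr1, the next genes on either side, were looked at after the values of Mog were seen. Zfp57 had 113, 76.9 and 161 CPM in KO 1, KO 2 and KO 3, against 181, 72.9 and 67.6 CPM in WT 3, WT 6 and WT 7. KO 1, KO 3 and WT 3 were thus the high libraries of both genes and WT 6 and WT 7 the low ones. For Zfp57 the log2 fold change was 0.13 with an SE of 0.43 (adjusted p = 0.841, edgeR). Per 100 reads of Zfp57 there were 9.02, 6.95 and 6.77 reads of Mog in KO 1, KO 2 and KO 3, and 5.86, 2.48 and 2.31 in WT 3, WT 6 and WT 7, so the ratio was not the same in all libraries. The part of reads running on from Zfp57 in the count of Mog was not tested, and the table has no values per exon. Gabbr1, a GABA receptor gene on the other side, fell by 0.79 (SE 0.15, adjusted p = 0.00962, edgeR). Summed over the 13 neuron markers, KO libraries held 2711 to 4040 CPM, and WT 3, WT 6 and WT 7 held 2652, 1633 and 1424 CPM. WT 3 was again the highest WT library, and the part of neurons in its value was not tested either.

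**Figure D3:**
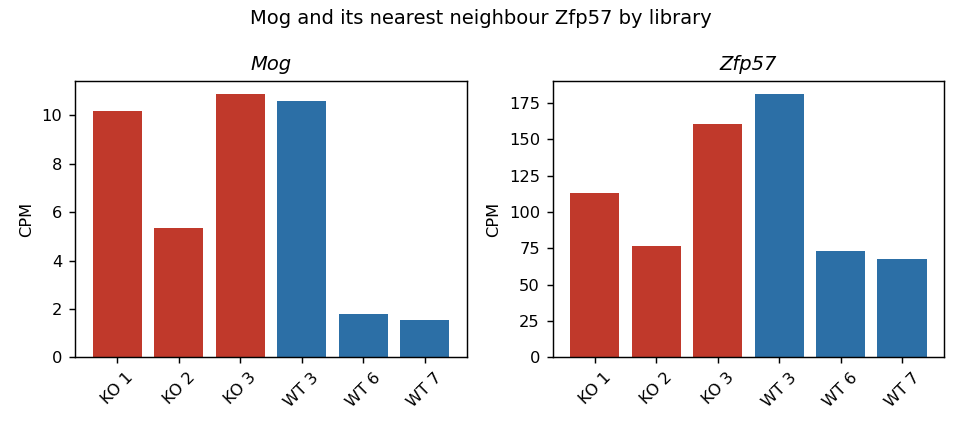
Normalised read count (CPM, linear axes from 0) of Mog and of its nearest neighbour Zfp57 in KO 1, KO 2 and KO 3 (red) and in WT 3, WT 6 and WT 7 (blue), 1 bar per library. Both genes are high in KO 1, KO 3 and WT 3 and low in WT 6 and WT 7.

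Per length, in the deposited FPKM (reads scaled by gene length and library total), the order of the genes differed between the groups. In KO, Cnp was highest at 22.3 ± 10.7 FPKM, followed by Bcas1 at 6.38 ± 8.54, Mog at 5.27 ± 1.81 and Mbp at 2.71 ± 2.65 (SD, n = 3). The place of Bcas1 rested on KO 3, with 1.17, 1.73 and 16.2 FPKM in KO 1, KO 2 and KO 3, against 6.20, 3.19 and 6.43 FPKM of Mog in the same libraries, so Mog was the higher of this pair in KO 1 and KO 2. In WT, Cnp was highest at 232 ± 34.1 FPKM, followed by Bcas1 at 141 ± 84.2 and Mbp at 75.2 ± 34.1, and Mog was second to last at 2.74 ± 3.1 (SD, n = 3), with 6.31 FPKM in WT 3 and 1.02 and 0.881 in WT 6 and WT 7. Enpp6, Myrf, Ugt8a and Mag followed Mbp in WT, between 17.6 and 10.7 FPKM, and their libraries overlapped between neighbours in this order. In KO each gene's libraries overlapped those of the next, except for Mag and Mobp. Mobp was last in both groups, at 0.00558 ± 0.00484 FPKM in KO and 0.346 ± 0.2 FPKM in WT (SD, n = 3 each).

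The 8 genes that fell did not keep the same share of their WT level. As mean CPM in KO over mean CPM in WT it was 10.3% for Ugt8a, 9.31% for Cnp, 6.59% for Myrf, 4.44% for Bcas1, 3.5% for Mbp, 1.52% for Mobp, 1.5% for Mag and 1.26% for Enpp6. The KO libraries were also unequal. KO 3 was highest among them for 7 of the 9 genes, and in it Myrf stood at 14.2% of the WT mean, Cnp at 14.3%, Bcas1 at 11.3%, Mbp at 7.5%, Mag at 3.75% and Enpp6 at 3.33%. In KO 1 and KO 2 these 6 genes stood at 0.0939% to 8.22%.

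**Figure D4:**
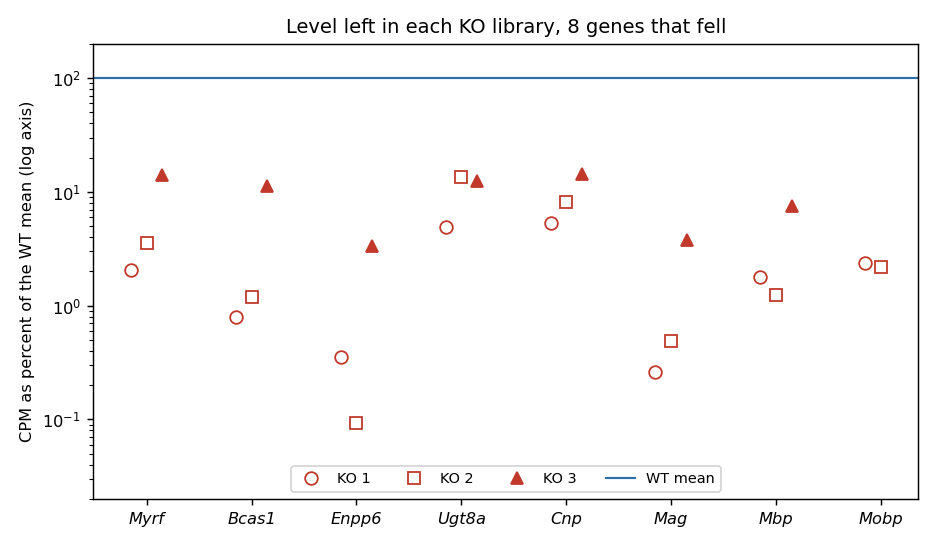
CPM of the 8 genes that fell in KO 1 (open circles), KO 2 (open squares) and KO 3 (filled triangles) as a percent of the mean of the WT libraries, on a log axis, with the WT mean as a line at 100. Mobp had no reads in KO 3 and has no triangle. KO 3 stands highest for Myrf, Bcas1, Enpp6, Cnp, Mag and Mbp, and KO 2 for Ugt8a.

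Across the 6 libraries the protein-coding genes with the profile most like the mean of the 9 were Gal3st1, Tmem88b, Gm11627, Acat3, Zfp488, Plxnb3, S100b, Cldn11 and Scrg1. Likeness was the root mean square difference of centred log2 CPM over 6 libraries among 12454 genes, and ran between 0.286 for Gal3st1, the nearest, and 0.596 for Scrg1, the ninth. Among the members themselves it was 0.275 for Myrf, the nearest, and 2.94 for Mog, the farthest. Gal3st1, which turns galactosylceramide into sulfatide, had 0.922, 1.57 and 4.02 CPM in KO 1, KO 2 and KO 3, against 39.7, 22.3 and 22.6 CPM in WT 3, WT 6 and WT 7. In it, as in most of the 9, KO 3 was the highest KO library. Acat3 has a close paralog with which reads can be shared, and its value is uncertain. These genes were picked on the contrast they show, and their values are a description.

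Other genes of myelin and its membrane gave a more mixed picture than the 9. Of 35 listed, 27 were tested, 13 fell and 2 rose, against 15.5% of all tested genes called lower and 13.5% called higher. The median log2 fold change of the 27 was -1.19. The count of those that fell was 12 to 14 with each library left out, and over all tested genes it was 1151 to 3141. Cldn11, the claudin of myelin tight junctions, had a log2 fold change of -3.98 (SE 0.41). Sirt2, a deacetylase abundant in myelin, fell by 2.82 (SE 0.31) and Gsn, an actin-severing protein, by 1.80 (SE 0.13). The 2 that rose were Anln, at 61.8 ± 9.54 CPM in KO and 11.1 ± 4.08 CPM in WT (SD, n = 3 each), and Ermn, an actin-binding protein of late oligodendrocytes, at 1.52 ± 0.719 CPM in KO and 0.220 ± 0.0669 CPM in WT. Anln (log2 fold change 2.48, SE 0.27) is also the cytokinesis gene of dividing cells. Ermn, named after its values were seen, lost its call without WT 6 (adjusted p = 0.0552, edgeR). It had 4, 3 and 6 reads in WT 3, WT 6 and WT 7, under the level of the expression filter. Ermn thus entered the test through KO alone, and its call is a description. So are those of Mal, Gjc3 and Gjb1, which fell and entered through WT alone, with at most 9 reads in a KO library. These 3 were named after their values were seen. With all libraries the adjusted p-values of Cldn11, Sirt2, Gsn, Anln and Ermn were between 0.000851 and 0.0115 (edgeR).

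Among genes that make or break down the galactolipids of myelin the enzymes of sulfatide synthesis and fatty acid hydroxylation fell most. Of 10 tested, 4 fell and 1 rose, against 15.5% of all tested genes called lower and 13.5% called higher. The median was -0.65. Gal3st1 fell by 3.68 (SE 0.56), -4.47 without KO 3, and Fa2h, which hydroxylates the fatty acid of these lipids, by 4.14 (SE 1.02), -6.33 without KO 3. Galc and Psap, of lysosomal breakdown, fell by 0.59 (SE 0.13) and 0.90 (SE 0.18). Cers2, a ceramide synthase, had 76.3 ± 12.2 CPM in KO and 86.2 ± 4.78 CPM in WT (SD, n = 3 each) with no pass of the threshold (-0.18 on the log2 scale, adjusted p = 0.343, edgeR). The gene that rose was Ugcg, which makes glucosylceramide from the same precursor (0.50, SE 0.14). Cers2 and Ugcg were named after their values were seen. The call of Fa2h ended without KO 2, WT 6 or WT 7, that of Galc without KO 1, KO 3, WT 6 or WT 7, and that of Psap without KO 2 or WT 6. The count that fell was 2 without KO 2 or WT 7, 1 without WT 6 and 6 without WT 3, and the count that rose was 0 without any library other than WT 3. Over all tested genes the count that fell was 2572 with all libraries, 1292 without KO 2 and 1285 without WT 7. It was 1151 without WT 6 and 3141 without WT 3. The count that rose over all tested genes was 1027 to 3500 with 1 library left out.

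Among 15 premyelinating genes 12 were called lower and 0 higher, against 15.5% and 13.5% of all tested genes. The median log2 fold change was -2.04. With each library left out 8 to 12 fell, and without WT 3 there was 1 that rose. Over all tested genes 1151 to 3141 fell in these settings, and 3500 rose without WT 3. Tns3, a focal adhesion protein of newly formed oligodendrocytes, fell by 2.13 (SE 0.17), Tcf7l2 by 1.82 (SE 0.18), Sirt2 as above and Cnksr3 fell by 1.12 (SE 0.18). Gpr17, a receptor of cells about to differentiate, was named after its values were seen. It had 4.09, 13.7 and 74.3 CPM in KO 1, KO 2 and KO 3, against 708, 525 and 309 CPM in WT 3, WT 6 and WT 7. It fell by 4.06 on the log2 scale (adjusted p = 0.0246, edgeR), -5.83 without KO 3, and lost the call without KO 2 or WT 6.

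The transcription factors of the lineage divided into genes that fell and genes that did not pass. Of 14 listed, 8 fell and 1 rose, against 15.5% of all tested genes called lower and 13.5% called higher. The median was -0.91. Zfp488, a corepressor that promotes differentiation, had 1.33, 4.26 and 7.85 CPM in KO 1, KO 2 and KO 3, against 59.2, 55.9 and 52.6 CPM in WT 3, WT 6 and WT 7. It fell by 3.63 on the log2 scale (SE 0.54), with -4.29 without KO 3. Tcf7l2, the HMG-box factor Sox8 (-1.73, SE 0.32) and the chromatin remodeller Chd7 (-1.20, SE 0.21) also fell. Sox10, a direct partner of MYRF at myelin genes, was named after its values were seen. It had 8.18, 22.5 and 87.5 CPM in KO 1, KO 2 and KO 3, against 475, 186 and 185 CPM in WT 3, WT 6 and WT 7 (log2 fold change -2.83, SE 0.85, adjusted p = 0.0456, edgeR). That call held without KO 3 (-4.17) and ended without any other library, with -2.23 without WT 3. The count that fell was 5 without KO 1, KO 2, KO 3 or WT 7, 7 without WT 3 and 6 without WT 6. Over all tested genes it was 1399, 1292, 2136 and 1285 without KO 1, KO 2, KO 3 and WT 7. It was 3141 without WT 3 and 1151 without WT 6.

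Olig1 and Olig2, the factors that specify the lineage and stay on in its progenitors, were also named after their values were seen. Olig1 had 578, 1148 and 791 CPM in KO 1, KO 2 and KO 3, against 736, 1037 and 948 CPM in WT 3, WT 6 and WT 7. Olig2 had 416, 737 and 583 CPM in KO 1, KO 2 and KO 3, against 510, 655 and 599 CPM in WT 3, WT 6 and WT 7. The groups overlapped in both genes and neither passed. Olig1 gave a log2 fold change of -0.11 (SE 0.27, adjusted p = 0.766, edgeR) and Olig2 one of -0.02 (SE 0.22, adjusted p = 0.942). With each library left out, Olig1 stood between -0.40 and 0.13 and Olig2 between -0.23 and 0.19, so the sign of both depends on the libraries used.

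Of 12 markers of oligodendrocyte progenitors 7 were called lower and 0 higher, against 15.5% and 13.5% of all tested genes. The median log2 fold change of the markers was -1.45, and 4 fell without KO 2, where 1292 of 17254 tested genes fell. C1ql1 (-2.66, SE 0.23), Tmem100 (-2.63, SE 0.37), the PDGF receptor gene Pdgfra (-1.93, SE 0.23) and Lhfpl3 (-1.94, SE 0.39) had the lowest p, and each kept its call whichever library was left out. Pdgfra had 45.5, 47.9 and 78.0 CPM in KO 1, KO 2 and KO 3, against 202, 246 and 204 CPM in WT 3, WT 6 and WT 7. The proteoglycan gene Cspg4, which encodes NG2 and is also expressed by pericytes, had 103 ± 49 CPM in KO and 72.1 ± 20.7 CPM in WT (SD, n = 3 each). It missed the threshold (adjusted p = 0.351, edgeR) and was named after its values were seen. Gpr17 and Neu4, a sialidase gene named after its values were seen, stand in both this list and the premyelinating one and fell further. Neu4 had a log2 fold change of -4.19 (SE 0.89), -6.66 without KO 3, and lost its call without KO 2. It had 0, 1 and 10 reads in KO 1, KO 2 and KO 3, under the level of the expression filter. Neu4 thus entered the test through its WT libraries alone, and its call, counted in both lists, is a description.

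Of 12 tested genes listed as holding back oligodendrocyte differentiation, 5 fell, 1 rose and 6 did not pass. The place of Tcf4 in this list is uncertain. It did not pass (-0.37, adjusted p = 0.085, edgeR) and was named after its values were seen. Among all tested genes 15.5% were called lower and 13.5% higher. The median of the 12 was -0.39. Hes5, a Notch effector, fell by 2.97 (SE 0.38), Id4, an inhibitor of basic helix-loop-helix factors, fell by 2.24 (SE 0.30), and Sox6 fell by 1.75 (SE 0.18). Bmp4, an astrocyte-promoting ligand that new oligodendrocytes also make and that stands in the premyelinating list too, fell by 4.19 (SE 1.03), -6.28 without KO 3 and -3.32 without WT 3, and lost its call without KO 1 or KO 2. The count that fell was 3 without KO 1 or KO 2. Over all tested genes it was 1399 without KO 1 and 1292 without KO 2. Jag1, a Notch ligand named after its values were seen, was the gene that rose (1.54, SE 0.47), and it lost its call without any library other than KO 3.

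**Figure D5:**
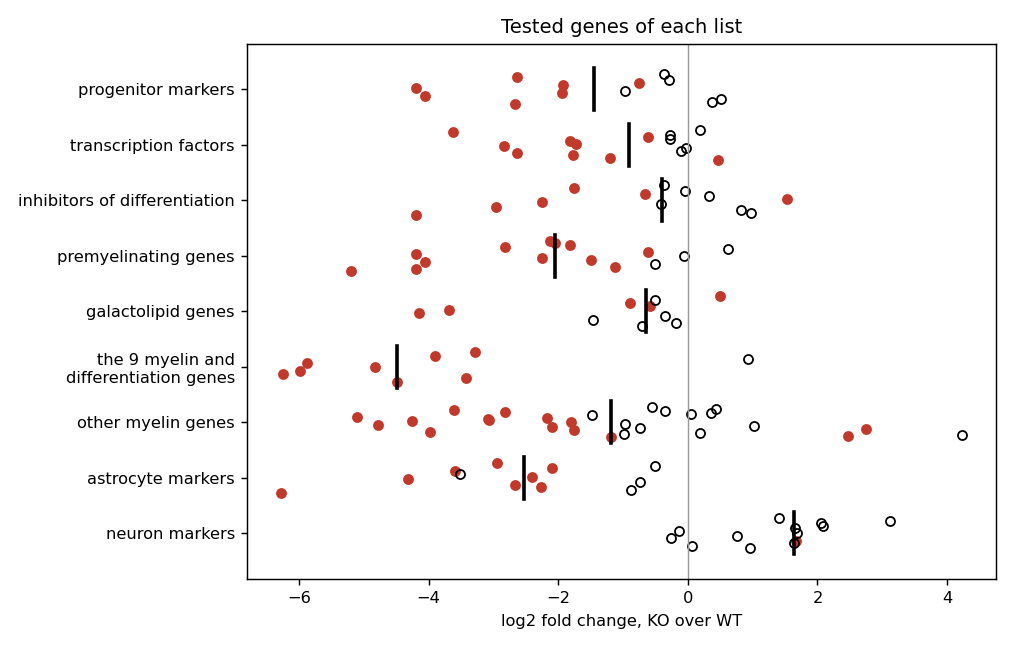
Log2 fold change of KO over WT of every tested gene in 9 lists, filled red where the adjusted p was under 0.05 and open where it was not, with a vertical bar at each list's median. The median of the 9 myelin and differentiation genes lies at -4.49, that of the premyelinating genes at -2.04, that of the progenitor markers at -1.45 and that of the neuron markers at 1.64.

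Markers of other cells moved with the same contrast. Of 12 astrocyte markers 8 were called lower and 0 higher, around a median of -2.54. Among all tested genes 15.5% were called lower and 13.5% higher, which holds for each list here. Those of lowest p were Agt (-6.27, SE 0.33), S100b, which oligodendrocytes also express (-3.60, SE 0.40), Ttyh1 (-2.95, SE 0.36) and Gja1 (-2.41, SE 0.29). Gfap, the intermediate filament of astrocytes, named after its values were seen, fell by 4.32 (SE 0.71), with 151, 189 and 71.1 CPM in KO 1, KO 2 and KO 3, against 730, 3789 and 3678 CPM in WT 3, WT 6 and WT 7. The summed level of the 12 astrocyte markers was 1772 to 2528 CPM in KO and 4245 to 10824 CPM in WT, lowest in WT 3. All 7 markers of cycling cells rose, among them Mcm2 (3.02, SE 0.15), Pcna (1.92, SE 0.13), Birc5 (2.99, SE 0.25) and Cdk1 (3.34, SE 0.34), and their summed level was 1593 to 2083 CPM in KO and 178 to 329 CPM in WT. Of 13 neuron markers only Gap43 passed (1.67, SE 0.44), and it lost the call without any library other than WT 3. Tbr1 (3.11, SE 1.07), Tubb3 (1.41, SE 0.47) and Snap25 (1.66, SE 0.55) did not. Without WT 3, 8 of the 13 rose, with Gap43 at 2.38, Tbr1 at 5.41, Tubb3 at 2.16 and Snap25 at 2.63, and without KO 1, KO 2, WT 6 or WT 7 none did. Over all tested genes 3500 of 17365 rose without WT 3. That count was 1490, 1224, 1027 and 1164 without KO 1, KO 2, WT 6 and WT 7. The part of the marker shifts in the fall of the 9 genes was not tested.

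Markers of Schwann cells, microglia and blood vessels were low in both groups. Summed over 7 Schwann cell markers, KO libraries held 20.6 to 39.5 CPM and WT libraries 15.3 to 32.4 CPM. Of 4 tested Schwann cell markers 1 rose, Dhh, which lost its call without any library other than WT 3. Dhh had 5 and 6 reads in WT 6 and WT 7, under the level of the expression filter, and its call is a description. Among all tested genes 13.5% were called higher and 15.5% lower. The 8 microglia markers summed to 3.12 to 17.1 CPM in KO and 1.46 to 5.82 CPM in WT, and the 6 endothelial markers to 2.74 to 4.78 CPM in KO and 4.59 to 6.98 CPM in WT. Of 3 tested microglia markers none passed, and of 2 tested endothelial markers Kdr fell. Mural and meningeal markers summed to 404 CPM in KO 1 but 29.9 and 61.5 CPM in KO 2 and KO 3, against 25.5 to 32 CPM in WT. Of 7 tested, Acta2 and Lum rose, with Lum at 4.25 in all libraries and 1.73 without KO 1. In WT 3, WT 6 and WT 7 Acta2 had 2, 2 and 2 reads and Lum 9, 8 and 9. These lay under the level of the expression filter, so both genes entered the test through KO alone. Their calls are descriptions. Lum lost its call without WT 3, WT 6 or WT 7. Without KO 1 the log2 fold changes of the 8 myelin and differentiation genes were -6.26 to -2.93, and 7 of them passed.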

How the data were processed

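RNA was sequenced from 6 neurosphere libraries. Per the submitters' processing notes, reads were processed with HISAT2 2.0.5, featureCounts 1.5.0-p3 and DESeq2 1.16.1 on mm10. No source used here states their settings, the annotation or the use of strand. The authors deposited whole-number read counts per gene, not normalised, and FPKM values. FPKM, gene length and library total together returned the deposited count, to 0.05 reads, for all 54 values of the 9 genes, and 4 of 327192 values in the table differed. Group and replicate number were taken from the titles.

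All 6 libraries entered 1 fit without covariates: TMM scaling, filterByExpr defaults (16606 genes kept), and the two-sided quasi-likelihood F test of edgeR 4.0.16 in R 4.3.3, with Benjamini-Hochberg adjustment over all tested genes and a threshold of 0.05. The SE is the absolute log2 fold change divided by the square root of F. The biological coefficient of variation was 26.5%. The script was tested on simulated counts.

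The 9 genes and the 13 other gene lists (154 genes) were chosen with earlier results of these data known. Lists are described by counts and medians, with no set test. Genes named are the 9, Ash2l, up to 4 tested genes of lowest p per list, and the 10 of most similar profile (mean of at least 2 CPM, prior count 2). Some genes that this rule or a count would name are not reported here. Nes, Sox2 and Vim serve as a check of the label. Others are said to have been named after their values were seen, apart from the genes that overlap or neighbour the 9, which were found by position. Alternatives were RLE factors, library totals, no filter, 1 CPM in 3 libraries, DESeq2 1.42.0, limma 3.58.1 (voom with quality weights, and log2 of FPKM plus 1 or 0.1 for genes of mean FPKM of at least 0.5), counts implied by FPKM, a block for replicate number 3, and each library left out. Leaving out WT 3 and KO 3 together was added after seeing the data. Intervals cover counting error only.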

Additional observations from a re-analysis of the deposited data

How the results depend on the processing

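Of 150 values of the 9 genes under alternatives, 144 kept their direction and side of the threshold, 3 lost a call (Bcas1 without KO 1, KO 2 or WT 6), 3 gained one (Mog, as given above), and 0 changed sign. Mobp was not tested at 1 CPM in 3 libraries or on FPKM, where the other 8 gave 7 calls. Between 7 and 9 of the 9 genes passed under any alternative. Over all genes, 4812 passed, 2572 of them lower, and limma-voom gave 8052 and 3919. Leaving out 1 library gave 2178 to 6641 and 1151 to 3141 lower, and leaving out WT 3 and KO 3 together gave 7249 in all. The cause of these shifts was not tested. Only the number 3 is shared by both groups, so the replicate numbers are not shown to pair the libraries. With a replicate block for number 3, 6156 genes and 8 of the 9 passed, and Mog stood at 1.44 (adjusted p = 0.0769, edgeR). At these depths a KO level under 3 reads gives no firm fold. Among the 9 genes this holds for Mobp in every KO library, for Mag in KO 1 and for Enpp6 in KO 2. Without KO 3 the fold of Mag rests on 2 and 4 reads in KO 1 and KO 2, and that of Enpp6 on 7 and 2.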

Other observations

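The nearest annotated neighbours of the 9 genes were also read, and CPM values of some are given. Myrf lies 447 bases from Tmem258, which had 66.9, 73.8 and 65.1 CPM in KO 1, KO 2 and KO 3, against 63.7, 82.9 and 65.3 CPM in WT 3, WT 6 and WT 7. On its other side Dagla, which makes the endocannabinoid 2-AG, had 54.5, 44.8 and 58.7 CPM in KO 1, KO 2 and KO 3, against 33.3, 25.2 and 29.6 CPM in WT 3, WT 6 and WT 7. Beside Mbp, Zfp236 had 64.6 to 73.9 CPM in KO and 88.4 to 100.1 CPM in WT. Beside Ugt8a, Ndst4 had 4.5, 2.27 and 0.568 CPM in KO 1, KO 2 and KO 3, against 0.449, 0.0502 and 0 CPM in WT 3, WT 6 and WT 7. Beside Cnp, Ttc25 had 0.98, 1.84 and 0.946 CPM in KO 1, KO 2 and KO 3, against 3.59, 3.51 and 3.60 CPM in WT 3, WT 6 and WT 7. Nkiras2, on the other side of Cnp, had 52.7 to 62.8 CPM in KO and 71.9 to 88.2 CPM in WT. All of these genes were found by position, and not every neighbour is printed.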
